A study of Mus musculus with 80 samples.

Results

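The immunoglobulin segment genes are 208 of the 38827 genes measured on these arrays. They were taken as every gene symbol that starts with Igh, Igk, Iglv or Iglc in the deposited annotated table, without Ighmbp2, a helicase gene that shares the prefix. Where a symbol had several features, the one with the highest mean was used. The set holds 113 heavy chain and 95 light chain genes. The heavy chain genes are 104 variable (V) genes, 4 diversity (D) genes and 5 constant region genes, namely Ighm, Ighe, Ighg1, Ighg2b and Ighg2c. The light chain genes are 93 kappa V genes, the kappa joining gene Igkj3 and the lambda V gene Iglv1. Of the 208 symbols, 200 were matched in a RefSeq gene table (assembly GRCm38.p6), which places the Igh genes on chromosome 12, the Igk genes on chromosome 6 and Iglv1 on chromosome 16. That table lists the 4 D genes as D segment pseudogenes. The other 8 symbols are older names of heavy chain V families, such as Igh-VJ558 and Igh-V11.

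An antibody is built from heavy and light chains, and a developing B cell joins V, D and J segments of the heavy chain locus, and V and J segments of a light chain locus, into exons that are read together with a constant region. Each B cell clone therefore transcribes its own pair of V segments, and plasma cells, which secrete antibody, contain far more of this RNA than resting B cells. In subcutaneous fat such RNA is known to come from B cells and plasma cells of the tissue and from lymph nodes embedded in the depot, not from fat cells.

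Subcutaneous white fat was profiled in male mice fed a high fat diet (Harlan 06414, from week 8) or chow (Harlan 2018), all 29 weeks old and fasted overnight. There were 38 high fat arrays and 42 chow arrays, and each held the pooled RNA of about 5 animals of 1 strain. The strains were 40 BXD lines, bred to homozygosity from crosses between DBA/2J and C57BL/6J mice, and these 2 parental strains. In 36 BXD strains and both parents there was 1 pool on each diet, whereas BXD56, BXD60, BXD92a and BXD96 had a chow pool alone. No pool was repeated within a strain and diet. The diet, strain and parental tests therefore take their error from how the difference between diets varies among strains. That spread mixes pool noise with diet responses that differ between strains.

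The deposited values are scores that every array spreads around a mean of 8 (SD 2). A difference of 1 scale unit is therefore 0.5 array SD, and no folds are given. Scores of different genes come from different probes, so an order of genes by score is an order of probe signals, not of RNA levels. It was used here to choose which heavy chain V genes to name. Fat cell markers scored high on all arrays, with a mean over 10 of them of 12.78 to 13.64 on high fat and 13.05 to 13.90 on chow (38 and 42 arrays). Of 91 marker genes found out of 96 listed, 21 mark B cells, 14 T cells, 15 plasma cells and 7 lymph node stroma. The mean over the B cell markers ranged from 8.61 to 11.32 on high fat and from 8.58 to 11.26 on chow, and that over the T cell markers from 8.41 to 10.49 on high fat and from 8.73 to 10.98 on chow.

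A few pools stood apart from the rest in nearly all immunoglobulin genes, and the results below are given with and without them where they matter. Over the 38 strains with both diets, the median score over the heavy chain genes ran from 7.27 (BXD66) through a median of 8.23 to 10.30 (BXD79) on high fat, and from 7.54 (BXD73) through 8.35 to 10.47 (BXD49) on chow. Over the light chain genes it ran from 7.43 (BXD44) through 8.36 to 10.30 (BXD79) on high fat, and from 7.17 (BXD73) through 8.44 to 10.53 (BXD49) on chow. BXD49 was high on both diets, while BXD79 was high on high fat alone, and the 2 diets overlapped over most of their range.

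BXD49 had the highest score of 38 pools for 51 members on high fat and for 145 members on chow (832 and 811 of all 38827 genes). BXD79 had the highest score for 95 members on high fat and for 0 on chow (1219 and 778 of all 38827 genes). Its heavy chain median on chow was 8.02. Next in heavy chain median on high fat were C57BL/6J with 10.04 and BXD83 with 9.37. At the low end on high fat, after BXD66, came BXD70 and DBA/2J, both at 7.37. These pools also differed in lymphocyte markers. The B cell marker mean was 11.32 in BXD79, 11.22 in BXD83 and 11.07 in BXD49 on high fat, but 8.65 in DBA/2J and 8.64 in BXD66. In C57BL/6J it was 10.47, which ranked 29 of 38 from the lowest, against a rank of 36 in heavy chain median. The part of B cell content in the immunoglobulin levels was not tested, and in pooled tissue RNA fewer cells and less RNA per cell cannot be told apart.

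**Figure D1:**
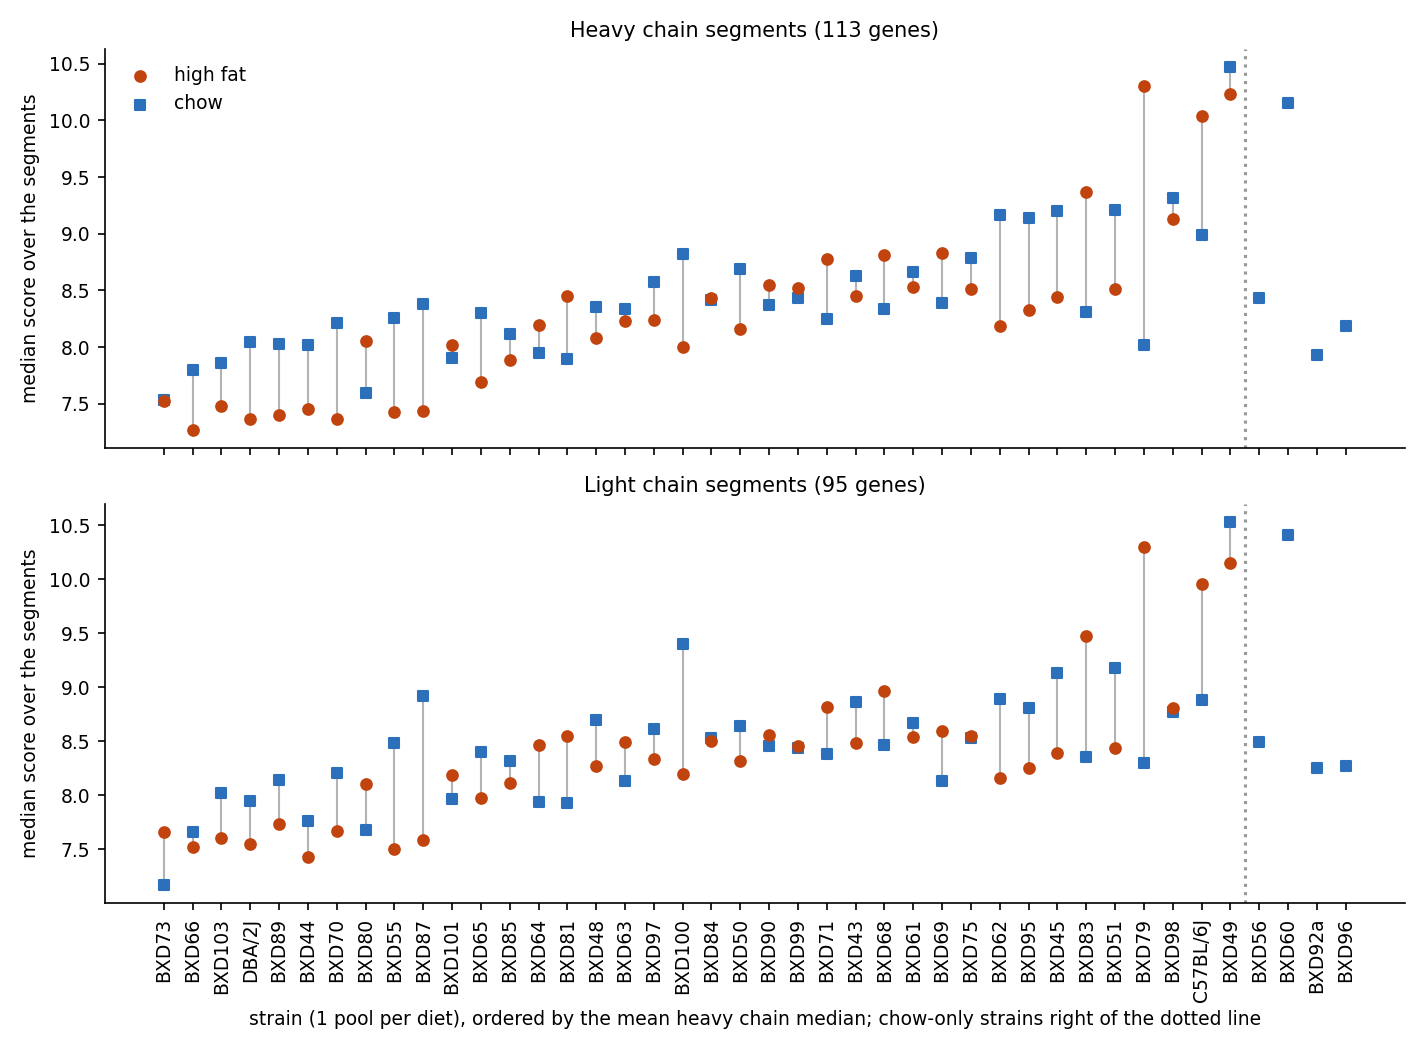
Median score over 113 heavy chain genes (top) and 95 light chain genes (bottom) in each pool, with strains ordered by their mean heavy chain level. Each strain has a circle for high fat and a square for chow joined by a line. BXD49 lies near the top on both diets, BXD79 at 10.30 on high fat and 8.02 on chow, and BXD60, measured on chow alone, at 10.15 for heavy and 10.41 for light chain genes.

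The spread between strains was wide for this gene set. The SD across 38 strains had a median of 0.788 units over heavy chain genes and 0.754 over light chain genes on high fat, against 0.158 over all genes. On chow the medians were 0.613 for heavy and 0.603 for light chain genes, against 0.172 over all genes. Of the 208 members, 180 on high fat and 162 on chow had an SD above the 90th percentile of all genes. The D genes had SDs of 0.216 to 0.409 on high fat and 0.302 to 0.369 on chow, below those of most V genes.

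Pairing the diets within each strain asks which immunoglobulin genes differ after prolonged high fat feeding. On high fat 45 of 208 members were lower (21.6%, against 24.5% of all genes) and 13 were higher (6.25%, against 36.7% of all genes), by limma with strain as a block. In either direction that is 27.9% of the members, against 61.2% of all genes. The median change of the members was -0.11 units (-0.12 for heavy and -0.09 for light chain genes), and 150 of 208 members had a mean change below 0. Over all genes the median change was 0.03, and 42.9% of them had a mean change below 0. Changes of at least 0.5 units were called for 12 members (5.77%), against 1.81% of all genes. Without BXD79 the members called lower numbered 78 (37.5%, against 24.5% of all genes), and without BXD49, BXD79, BXD83 and both parents they numbered 107 (51.4%, against 23.6%), while robust regression with all strains gave 105 (against 30.2% of all genes). The 78 included all 45 of the 38-strain comparison, and the 107 included 44 of them. The strains left out for the 107 were picked after the data were seen. Among them BXD79, C57BL/6J and BXD83 had the largest increases in heavy chain median on high fat (1.91, 0.80 and 0.71 units). Leaving them out therefore favours lower calls, and the 107 is no separate evidence of a decrease.

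Among constant region genes, 1 of 5 changed (20%, against 61.2% of all genes). Ighm, the mu constant region of IgM, scored 12.58, 13.25 and 13.85 (lowest, median and highest pool) on high fat, and 11.60, 13.07 and 13.67 on chow. The 2 diets overlapped, and 27 of 38 strains were higher on high fat, with a mean change of 0.24 ± 0.50 units (SD over 38 strains, adjusted p = 0.00809). This call rested on the feature that was used. Ighm has 5 features, of which 3 had a mean change below 0, and the average of all 5 gave -0.08 units, which did not pass the test (adjusted p = 0.162).

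The IgG and IgE constant regions did not pass the test for diet. Ighg2b, of IgG2b, scored 8.26, 9.00 and 13.41 on high fat and 8.32, 9.05 and 13.96 on chow (change 0.10 ± 1.26, adjusted p = 0.675). Its highest pools were BXD79 on high fat and BXD49 on chow, 4.42 and 4.91 units above the median of their diet. Ighg2c, the IgG2c region that C57BL/6 mice carry in place of IgG2a, had 8.28, 9.59 and 11.92 on high fat and 8.60, 9.70 and 11.78 on chow (change -0.21 ± 0.71, adjusted p = 0.0945). Ighg1 changed by -0.02 ± 0.74 units (adjusted p = 0.881) and Ighe by 0.11 ± 0.33 (adjusted p = 0.0573). For each of these 4 genes the 2 diets overlapped almost fully.

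Among the 104 heavy chain V genes, 27 were lower (26%, against 24.5% of all genes) and 4 higher (3.85%, against 36.7%) on high fat. Ighv1-71 scored 5.35, 7.23 and 10.40 on high fat and 5.54, 7.85 and 11.29 on chow. It was lower in 29 of 38 strains, although the 2 diets overlapped, and it changed by -0.71 ± 1.19 units (adjusted p = 0.00115). Ighv1-62-2 has the same values as Ighv1-71 in every array, so the pair is 1 measurement. The Ighv1 genes, the large J558 family, held 11 lower (22.4%) and 1 higher of 49. In the Ighv14 family 3 of 4 genes were lower (75%, against 24.5% of all genes), and Ighv14-1 changed by -0.56 units (adjusted p = 0.000298). None of the 7 Ighv2 genes passed the test in either direction, and 0 had an unadjusted p under 0.05.

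The 4 D genes, which lie between the V and J segments of the heavy chain locus and are listed as pseudogenes, did not pass the test. Their changes were 0.03 to 0.04 units, and Ighd5-7 and Ighd6-1 hold identical values. The 5 heavy chain V genes whose probes gave the highest mean signal, named by the rule, also did not pass. Ighv1-2 scored 10.69, 12.82 and 15.23 on high fat and 10.92, 13.04 and 15.45 on chow (change -0.28 ± 1.10, adjusted p = 0.153), with BXD49 highest on both diets. The RefSeq gene table lists Ighv1-2 as a V segment pseudogene. For Ighv1-56, Ighv2-3, Ighv1-5 and Ighv1-14 the changes were between -0.15 and -0.04 units.

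Among the 95 light chain genes 18 were lower (18.9%, against 24.5% of all genes) and 8 higher (8.42%, against 36.7%). The largest change of any member was an increase. Igkv4-51, a kappa V gene, scored 7.57, 8.67 and 11.28 on high fat and 6.74, 7.68 and 9.59 on chow. The diets overlapped, but 35 of 38 strains were higher on high fat, by 1.07 ± 0.72 units (adjusted p = 1.45e-10). The change stayed between 1.00 and 1.11 units when each strain was left out. It was higher in both parents, by 1.16 units in DBA/2J and 2.30 in C57BL/6J.

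Other kappa V genes of the Igkv4 family moved in both directions. Igkv4-86 scored 8.21, 9.57 and 11.60 on high fat and 6.62, 9.01 and 12.78 on chow, and it was higher in 28 strains (0.46 ± 1.03 units, adjusted p = 0.0132). Igkv4-50 was higher in 24 strains (0.36 ± 0.97, adjusted p = 0.035), a call that was lost in 8 of 38 fits with 1 strain left out (adjusted p = 0.0626 without BXD79). Igkv4-90 scored 5.52, 6.18 and 8.25 on high fat and 6.09, 7.05 and 8.81 on chow. It was lower in 34 strains, by 0.75 units on average (-0.75 ± 0.58, adjusted p = 3.96e-09). Of the 28 Igkv4 genes, 3 were higher (10.7%, against 36.7% of all genes) and 2 lower (7.14%, against 24.5%).

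Increases that were small and shared by many strains were seen for Igkv8-18 (0.33 ± 0.35 units, higher in 33 strains, adjusted p = 3.54e-06) and Igkv13-87 (0.29 ± 0.32, higher in 32, adjusted p = 4.72e-06). Igkv13-87 had scores of 4.18 to 5.13 on high fat and 3.64 to 5.11 on chow. In the Igkv8 family 3 of 8 genes were higher (37.5%, near the 36.7% of all genes) and 0 lower, with 0 lower at an unadjusted p under 0.05 as well. One of the 3, Igkv8-19, passed in 21 of 38 fits with 1 strain left out (adjusted p = 0.0726 without BXD83). Igkv5-43 scored 5.67, 7.66 and 11.25 on high fat and 6.11, 8.19 and 14.18 on chow, with the chow maximum in BXD49, and it changed by -0.67 ± 1.56 units (lower in 24 strains, adjusted p = 0.0161).

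Igkj3, a joining segment of the kappa locus, scored 7.64, 10.34 and 12.88 on high fat and 8.04, 10.89 and 12.99 on chow. It was lower in 25 strains and higher in 13, with a change of -0.73 ± 1.39 units (adjusted p = 0.00374). Iglv1, the lambda V gene of the set, scored 7.58, 9.16 and 11.50 on high fat and 7.61, 9.61 and 11.30 on chow (change -0.41 ± 0.97, lower in 24 strains, adjusted p = 0.018). For both genes the ranges on the 2 diets overlapped almost fully.

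**Figure D2:**
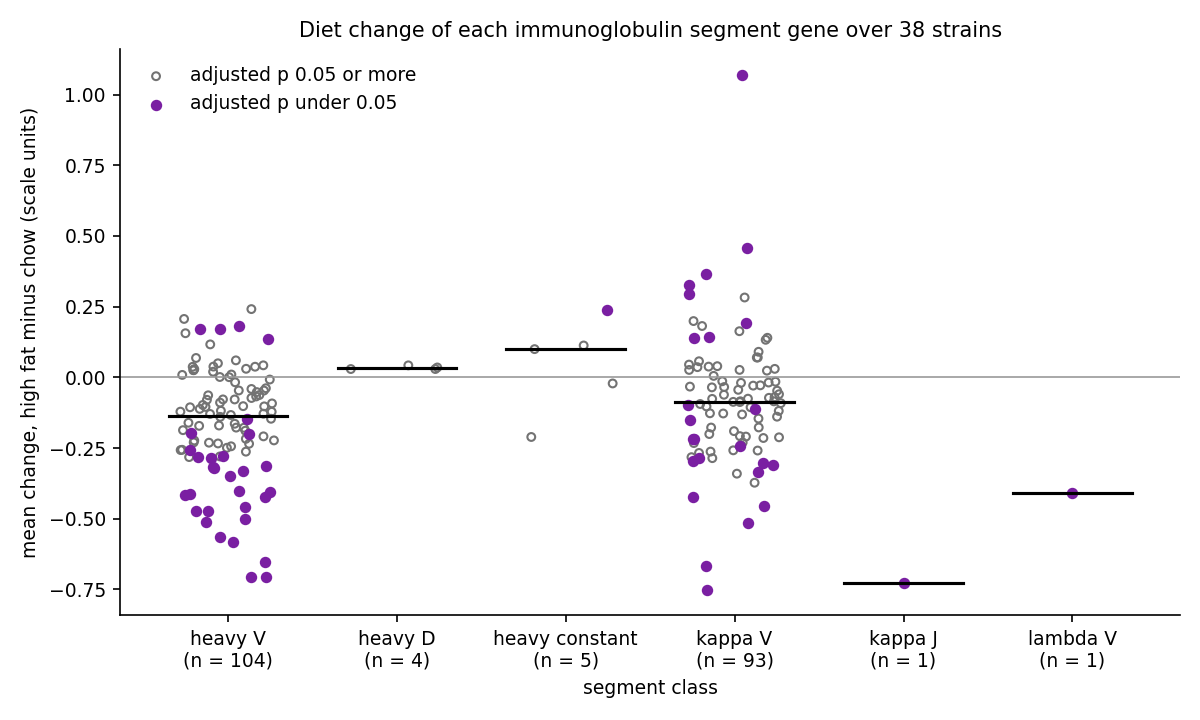
Mean change of each member between diets (high fat minus chow, in scale units, over 38 strains), by segment class. Filled points passed the limma test, open points did not, and the horizontal bars are class medians. Most points lie between -0.5 and 0.5 units, and Igkv4-51 at 1.07 lies far above the other kappa V genes.

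Marker genes of several cell types moved alongside. Of 21 B cell markers 10 were lower (47.6%, against 24.5% of all genes) and 1 higher on high fat. Cr2, complement receptor 2, changed by -0.83 ± 1.35 units (adjusted p = 0.000763), whereas Blnk, a B cell receptor adaptor, was higher by 0.35 ± 0.54. Of 14 T cell markers 10 were lower (71.4%) and 1 higher, and Cd3e, a T cell receptor subunit, changed by -0.61 ± 1.00, while Thy1, which other cells also carry, was higher by 0.22 ± 0.34. Of 7 lymph node stroma markers 4 were lower (57.1%) and 1 higher, with Cxcl13, a B cell chemoattractant, at -0.84 ± 1.42 (adjusted p = 0.00123). Of 6 skeletal muscle markers all 6 were lower (100%), and of 10 fat cell markers 5 were lower (50%, against 24.5% of all genes) and 1 higher (10%, against 36.7%). The part of these markers in the immunoglobulin changes was not tested.

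Of 15 plasma cell markers 7 were higher (46.7%, against 36.7% of all genes) and 2 lower (13.3%, against 24.5%). Edem1, an endoplasmic reticulum degradation factor that many cells use, was higher by 0.58 ± 0.40 units, while Igj, the joining chain of IgM and IgA, changed by 0.001 ± 0.836 (adjusted p = 0.994). Irf4, a transcription factor of plasma cells and other immune cells, was lower (-0.31 ± 0.46). With the B cell and T cell marker means as covariates, 29 members were lower on high fat (13.9%, against 21.7% of all genes). In that fit 27 were higher (13%, against 34.2%), and the median changes of heavy and light chain genes were 0.01 and 0.03 units.

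Genes for antibody assembly and antibody binding were counted as well. Of 8 genes of the surrogate light chain and of recombination, 2 were higher (25%, against 36.7% of all genes) and 1 lower (12.5%, against 24.5%). Dntt, the polymerase that adds bases at V(D)J joints, changed by -0.22 ± 0.14 units, and Rag1 and Rag2, the recombinase, did not pass the test (adjusted p = 0.329 and 0.123). Of 10 immunoglobulin receptors 6 were higher (60%, against 36.7% of all genes) and 1 lower on high fat. Fcer1g, the signalling chain shared by Fc receptors, was higher by 0.74 ± 0.64 units, and Fcamr, a receptor for IgM and IgA, was lower (-0.30 ± 0.29).

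The comparison of strains asks which members keep their strain level on both diets. Past limma's F test over the strains were 114 of 208 members (54.8%), against 10.4% of all genes. These were 69 of 113 heavy chain genes (61.1%) and 45 of 95 light chain genes (47.4%). The share of variance that lay between strains had a median of 0.391 over the members, 0.435 for heavy and 0.351 for light chain genes, and 0.146 over all genes. Without BXD49 alone the members past the test numbered 35 (16.8%, against 8.12% of all genes), all of them among the 114. Without BXD49, BXD79, BXD83 and both parents they numbered 56 (26.9%, against 4.49%), 47 heavy and 9 light chain genes.

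The largest shares belonged to a pair of VH11 genes. Igh-V11 scored 7.26, 7.51 and 9.03 on high fat and 7.35, 7.80 and 9.28 on chow, and 0.77 of its variance lay between strains (adjusted p = 5.87e-06, and 1.1e-05 without BXD49). Ighv11-1 scored 5.99, 6.45 and 8.40 on high fat and 6.19, 6.61 and 8.32 on chow, with a share of 0.72 (adjusted p = 4.67e-05, and 7.3e-05 without BXD49). C57BL/6J was the highest pool of both genes on both diets, and the next pool lay at least 0.73 units below it. The fits without BXD49 kept C57BL/6J, so they cannot show whether these shares rest on that strain.

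For the next members in this order BXD49 was the highest pool on both diets. Ighv5-9-1 scored 6.22, 7.08 and 11.45 on high fat and 6.34, 7.38 and 10.99 on chow (share 0.70, adjusted p = 7.67e-05, and 0.00466 without BXD49). Igkv17-127 scored 8.29, 9.38 and 14.20 on high fat and 8.80, 9.57 and 12.93 on chow. Its share was 0.66 (adjusted p = 0.000321), and the call was lost without BXD49 (adjusted p = 0.155). Ighv1-80 had 6.48, 7.66 and 11.61 on high fat and 6.65, 7.93 and 12.51 on chow, with a share of 0.64 (adjusted p = 0.000538, and 0.00929 without BXD49).

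Constant region genes with a strain effect were Ighg2b (share 0.47, adjusted p = 0.012) and Ighg2c (share 0.51, adjusted p = 0.00745), and both lost the call without BXD49 (adjusted p = 0.156 and 0.0782). Ighm had a share of 0.21 (adjusted p = 0.196). Among V families, 45 of 49 Ighv1 genes (91.8%) and 20 of 28 Igkv4 genes (71.4%) passed the test, against 10.4% of all genes. Without BXD49, 13 Ighv1 and 0 Igkv4 genes passed it, against 8.12% of all genes (12 Igkv4 genes had an unadjusted p under 0.05). None of the 6 Igkv12 genes and none of the 4 D genes passed (3 and 0 had an unadjusted p under 0.05).

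**Figure D3:**
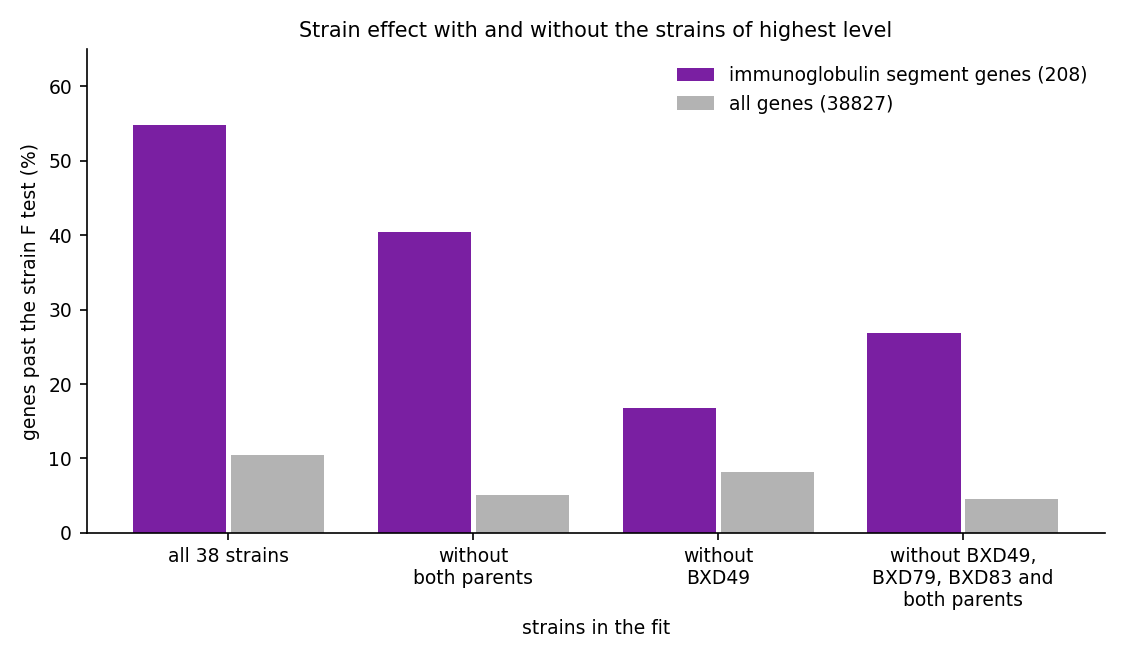
Percent of the 208 immunoglobulin segment genes (left bar of each pair) and of all 38827 genes (right bar) past the strain F test, by the strains that entered the fit. The members' share is 54.8% with all 38 strains and 16.8% without BXD49, and it lies above that of all genes in each of the 4 fits.

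The contrast of the parents asks how the founders of the BXD strains differ, with 2 pools each, 1 per diet, and the residual spread taken from all 38 strains. DBA/2J was lower than C57BL/6J in 113 of 208 members (54.3%, against 4.61% of all genes) and higher in 0 (against 7.08% of all genes). At an unadjusted p under 0.05, 165 members were lower and 0 higher. The 113 members were 68 of 113 heavy chain genes and 45 of 95 light chain genes. Differences below 0 were found for 201 members (96.6%, against 39.1% of all genes). The median over all members was -1.56 units (-1.53 for heavy and -1.65 for light chain genes), and over all genes it was 0.07. On high fat alone the median over members was -2.10 units, and on chow alone it was -0.87. V segments differ in sequence between the parents, and the match of the probes to each parent was not tested. Less RNA and poorer probe match in DBA/2J can therefore not be told apart. The same holds among the BXD strains, which carry alleles of both parents.

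The largest differences were in the Ighv1 family, of which 44 of 49 genes were lower in DBA/2J (89.8%, against 4.61% of all genes). Ighv1-53 scored 7.07 on high fat and 8.62 on chow in DBA/2J, against 12.55 on high fat and 11.22 on chow in C57BL/6J (difference -4.04 ± 0.91 SE, adjusted p = 0.00317). Ighv1-76 scored 5.73 and 6.20 in DBA/2J on high fat and chow, against 10.61 and 8.90 in C57BL/6J (-3.79 ± 0.92 SE, adjusted p = 0.00553). On high fat no BXD pool lay below DBA/2J for Ighv1-53 and 1 did for Ighv1-76, while 2 BXD pools lay above C57BL/6J for Ighv1-53 and 1 for Ighv1-76.

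Igh-VJ558, an older symbol for that family, differed by -3.76 units (adjusted p = 0.00374), and its 9 other features had differences from -4.01 to -0.45. Ighv1-80 differed by -3.53 (adjusted p = 0.00113). Among light chain genes Igkv14-111 scored 5.76 and 6.97 in DBA/2J on high fat and chow, against 9.95 and 9.65 in C57BL/6J (-3.43 ± 0.79 SE, adjusted p = 0.00346). Iglv1 differed by -2.07 (adjusted p = 0.0327).

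Of the constant region genes, 2 of 5 were lower in DBA/2J (40%, against 4.61% of all genes). Ighg2b scored 8.38 and 8.78 in DBA/2J on high fat and chow, against 12.98 and 10.45 in C57BL/6J (-3.13 ± 0.85 SE, adjusted p = 0.0124). Ighg2c differed by -1.61 ± 0.48 SE (adjusted p = 0.023). It is the form that C57BL/6 mice carry, and the match of its probes to DBA/2J was not tested. Less RNA and poorer probe match can therefore not be told apart for Ighg2c, either between the parents or in its strain share. Ighm scored 13.60 and 13.32 in DBA/2J, against 13.66 and 13.56 in C57BL/6J, and its difference of -0.15 ± 0.34 SE did not pass the test (adjusted p = 0.82). Among the other Ighm features the differences ran from -1.11 to -0.16 units.

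C57BL/6J lay above all 36 BXD pools on both diets for 3 members, Igh-V11, Ighv11-1 and Igkv14-126, picked out after their values were seen. That is 1.44% of the members, and the share of all genes is also 1.44%. Igkv14-126 scored 6.83 and 7.34 in DBA/2J on high fat and chow, against 9.87 and 9.69 in C57BL/6J, while the highest BXD pool had 8.77 on high fat and 8.53 on chow (difference -2.70 ± 0.38 SE, adjusted p = 9.9e-05). Ighv11-1 scored 6.36 and 6.75 in DBA/2J, against 8.40 and 8.32 in C57BL/6J (-1.81 ± 0.22 SE, adjusted p = 5.6e-06), with BXD maxima of 7.59 and 7.29. Igh-V11 differed by -1.52 ± 0.15 SE (adjusted p = 3.61e-08). All 3 genes were also lower on high fat, with changes for Igh-V11 of -0.20 ± 0.21 units (30 strains, adjusted p = 3.7e-06), Ighv11-1 of -0.15 ± 0.32 (28 strains, adjusted p = 0.0105) and Igkv14-126 of -0.45 ± 0.56 (28 strains, adjusted p = 2.56e-05). The RefSeq gene table lists Igkv14-126 as a V segment pseudogene. In mice, VH11 heavy chains and the kappa chain of Igkv14-126 are known as a recurring pair in B-1 cells that bind phosphatidylcholine.

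Medians over B cell and T cell markers lay in the same direction. The median difference (DBA/2J minus C57BL/6J) was -1.31 units over 21 B cell markers, of which 2 were lower by the test. It was -1.17 over 14 T cell markers, of which 3 were lower, and -0.01 over 15 plasma cell markers. Of the plasma cell markers 2 were lower, Igj (-1.87 units) and Slamf7 (-1.56), and 1 was higher, Fkbp11 (0.46). Over 7 lymph node stroma markers the median difference was -1.17, and 0 of them passed the test in either direction. Of all genes 4.61% were lower and 7.08% higher in DBA/2J. Ccl21a, a lymph node chemokine, scored 9.09 on high fat and 12.23 on chow in DBA/2J, against 13.29 on high fat and 13.60 on chow in C57BL/6J (adjusted p = 0.0625), and the lymph node marker mean of DBA/2J was the lowest of 38 on high fat. The part of these markers in the parental difference was not tested. With the B cell and T cell marker means as covariates, 29 members were lower in DBA/2J (13.9%, against 1.95% of all genes) and the median difference of the members was -0.82 units. Without BXD49 the contrast called 114 members, which included all 113.

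**Figure D4:**
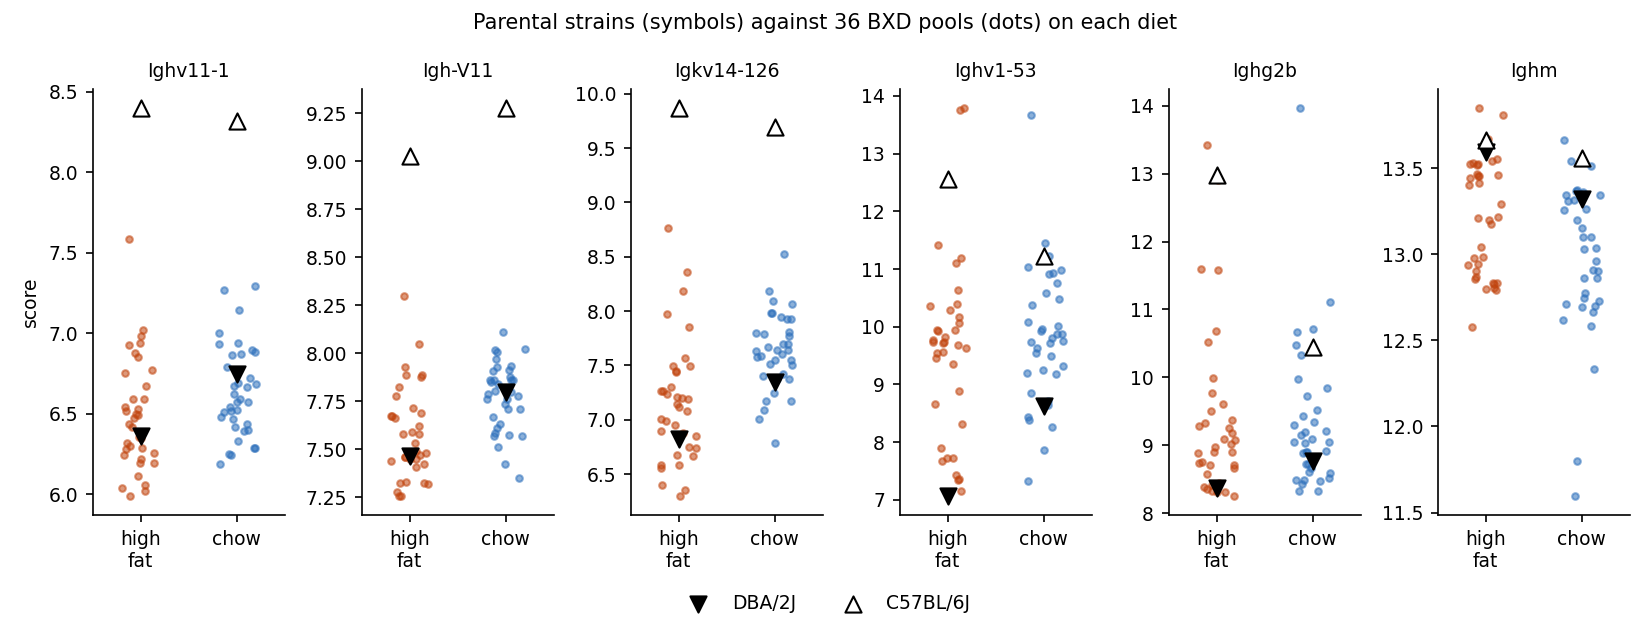
Scores of 6 members in DBA/2J (filled triangles), C57BL/6J (open triangles) and 36 BXD pools (dots) on high fat (left in each panel) and chow (right), with a separate axis per gene. C57BL/6J lies above every dot for Ighv11-1, Igh-V11 and Igkv14-126, within the range for Ighv1-53 and Ighg2b, and close to DBA/2J for Ighm.

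Heavy and light chain genes moved together across strains. The median change (high fat minus chow) over heavy chain genes had the same sign as that over light chain genes in 37 of 38 strains. It was below 0 in 25 strains for heavy and in 24 strains for light chain genes. BXD79 had the largest increases, 1.91 units for heavy and 1.97 for light chain genes, with 195 of 208 members higher on high fat. At the other end, 198 members were lower in BXD87 (-0.91 units for heavy and -1.01 for light chain genes) and 191 in BXD100 (-0.84 and -1.21). The heavy minus light difference of these changes was -0.07 ± 0.14 units (SD, n = 38 strains) and below 0 in 30 strains. No p is given for it, since it is a score over members chosen with results known.

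Pairs of members were correlated across the 38 strains to a like degree within and between chains. On high fat the median pairwise r was 0.75 for 6328 heavy-heavy pairs, 0.74 for 4465 light-light pairs and 0.74 for 10735 heavy-light pairs. On chow it was 0.62 for heavy-heavy, 0.66 for light-light and 0.62 for heavy-light pairs. These are descriptions over the same pools, which include BXD49 and BXD79, and the pairs are not independent. BXD49 was among the 3 highest pools for 166 members on high fat and for 174 on chow.

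The heavy and light counts in the strain F test varied with the strains that entered the fit. With all 38 strains 61.1% of heavy and 47.4% of light chain genes passed, without BXD49 21.2% of heavy (24) and 11.6% of light (11), without both parents 53.1% of heavy (60) and 25.3% of light (24), and without BXD49, BXD79, BXD83 and both parents 41.6% of heavy (47) and 9.47% of light (9). Whether this difference between chains exceeds chance was not tested.

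The last comparison sets 3 members against genes of B cells, T cells and plasma cells across arrays of 1 diet. Igkj3 followed Ms4a1, the B cell gene for CD20. On chow r was 0.94 and rho 0.92 over 42 arrays (permutation test, 100000 resamples, two-sided, adjusted p = 2.57e-05 for both, over 18 correlations), and r was 0.92 without the 2 arrays farthest in Ms4a1. On high fat Ms4a1 fell into separate clusters, 27 arrays at 9.12 or above and 11 arrays at 8.00 or below, so r is given within each. In the upper cluster Igkj3 and Ms4a1 had r = 0.95 and rho = 0.95 (permutation adjusted p = 0.00012 for both, over 12 correlations). In the lower cluster r was 0.62 (permutation adjusted p = 0.0887), and 0.16 without the 2 farthest arrays.

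Ighg2b followed Igj, the joining chain that plasma cells make, on both diets. On high fat r was 0.92 and rho 0.82 over 38 arrays (permutation adjusted p = 2.57e-05 for both), and r was 0.86 without BXD79 and BXD49. On chow r was 0.82 and rho 0.74 over 42 arrays (permutation adjusted p = 2.57e-05 for both), and r was 0.61 without BXD49 and BXD60. Ighg2b with Ms4a1 had r = 0.47 on chow (permutation adjusted p = 0.00352), and on high fat r = 0.54 in the upper and r = -0.07 in the lower Ms4a1 cluster (permutation adjusted p = 0.0113 and 0.821). With Cd3e it had r = 0.42 on chow (permutation adjusted p = 0.00604), and on high fat r = 0.13 in the upper and r = 0.64 in the lower Cd3e cluster (permutation adjusted p = 0.632 and 0.0887). Igkj3 with Igj had r = 0.61 on high fat and r = 0.54 on chow (permutation adjusted p = 0.00012 and 0.000486), and r = 0.54 and 0.35 without the 2 farthest arrays. The value 1e-05 is the smallest unadjusted p that these permutations can give.

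Ighm with Igj had r = 0.40 and rho = 0.31 on high fat (permutation adjusted p = 0.0111 and 0.0646), a relation that rested on BXD79 and BXD49, since r was 0.26 without them (permutation adjusted p = 0.134). On chow r was 0.53 with Igj, and 0.68 with Ms4a1 (permutation adjusted p = 0.00112 and 2.57e-05). On high fat Ighm and Ms4a1 had r = 0.59 in the upper and r = -0.59 in the lower cluster (permutation adjusted p = 0.00564 and 0.0917). With Cd3e on chow r was 0.52 and rho 0.43, and r was 0.29 without BXD73 and BXD81 (permutation adjusted p = 0.0764). On high fat Ighm and Cd3e had r = 0.18 in the upper and r = 0.31 in the lower cluster (permutation adjusted p = 0.521 for both). Igkj3 and Cd3e had r = 0.78 on chow and r = 0.59 over the 28 high fat arrays of the upper Cd3e cluster (permutation adjusted p = 2.57e-05 and 0.00498), and r = -0.14 over the 10 arrays of the lower cluster (permutation adjusted p = 0.756).

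**Figure D5:**
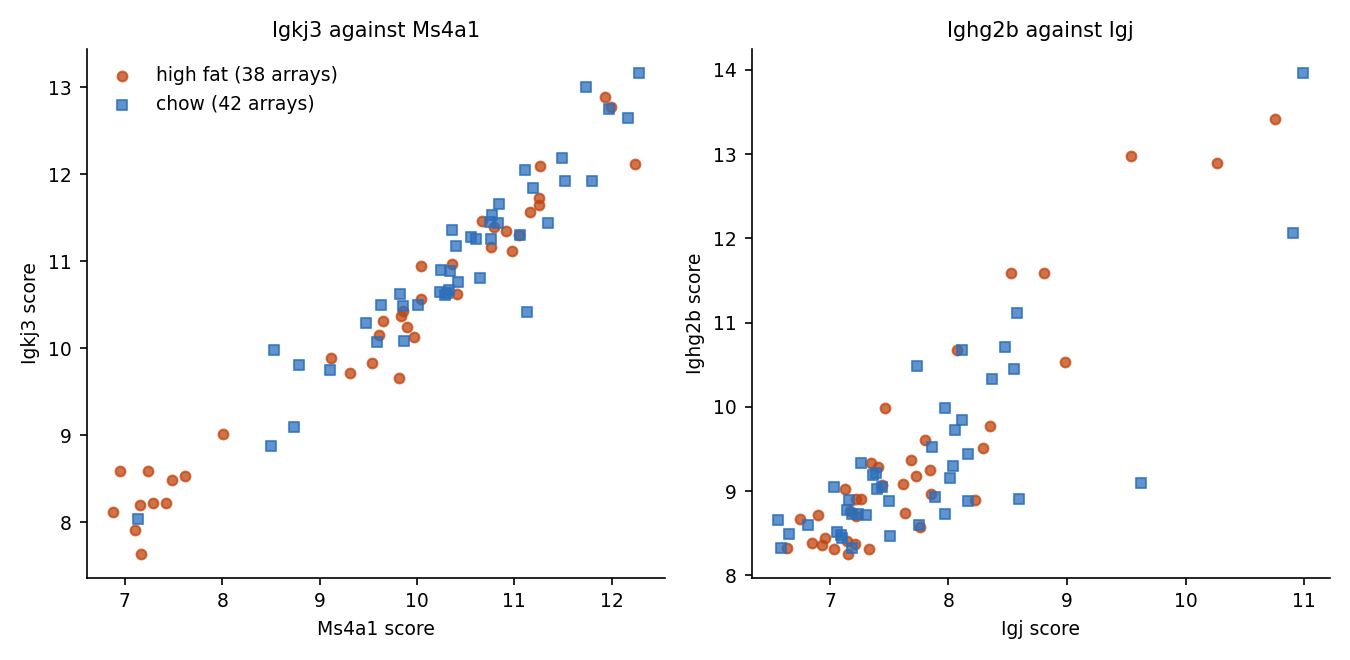
Igkj3 against Ms4a1 (left) and Ighg2b against Igj (right), 1 point per array, circles for 38 high fat and squares for 42 chow arrays, in scores. On high fat 11 arrays form a lower group in Ms4a1 at 8.00 or below, and the highest Ighg2b scores lie at the highest Igj scores.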

How the data were processed

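RNA pools of about 5 animals were hybridized to 1 Affymetrix array each, per the labels' protocols. The authors' tools were Affymetrix Expression Console and RMA, per the submitters' processing notes, with no versions. The deposited values are scores that have, over the 65770 features of each of the 80 arrays, the same mean (8) and SD (2). The rescaling step is not given in the sources used here, and it makes a change relative to all other features. The 26355 features without a symbol were set aside, with no filter on low scores. The members and gene lists were chosen with earlier results of these data known.

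The fit was limma (3.58.1, R 4.3.3) over 38827 genes in 76 arrays, with diet and strain as terms, since the strain label pairs the pools. Benjamini-Hochberg adjustment ran over all genes (threshold 0.05), and the script was tested on simulated data. The share of variance between strains is the intraclass correlation after removal of the diet means. Ighg2b and Igkj3 took the place of Igha and Igkc, which no feature used here carries as a symbol, in the correlations after the data were seen. Clusters were split there at a gap of at least 0.5 units in the x axis gene, with at least 6 arrays on each side. Gaps that left fewer arrays on 1 side were not split. Named members are all constant region genes, the heavy chain V genes whose probes gave the highest mean score, Iglv1, and the largest changes, strain shares and parental differences past the threshold. The kappa V genes with the highest mean score are not named for that reason. Others, such as Igkv14-126 and Ighv14-1, were named after their values were seen. The number of arrays limits the precision, and no array batch is given in the labels. Alternatives are listed in the closing section.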

Additional observations from a re-analysis of the deposited data

Results flagged for a closer look

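The parents moved in opposite directions with diet. The median change (high fat minus chow) over heavy chain genes was -0.49 in DBA/2J and 0.80 in C57BL/6J, and over light chain genes it was -0.26 in DBA/2J and 0.82 in C57BL/6J. In DBA/2J 41 of 208 members were higher on high fat, against 175 in C57BL/6J. Each parent had 1 pool per diet, so the difference was not tested. The B cell marker mean was 8.65 on high fat and 9.92 on chow in DBA/2J, and 10.47 on high fat and 10.82 on chow in C57BL/6J, and its part in the result was not tested.

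BXD60, measured on chow alone and outside the comparison of diets, had a heavy chain median of 10.152 and a light chain median of 10.412. It had the highest score of 42 chow arrays for 58 members and was among the 3 highest for 155. Its B cell marker mean was 11.26 and its plasma cell marker mean 9.93.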

How the results depend on the processing

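The main limit is that a few pools carry much of the spread, with 1 pool per strain and diet. Members lower on high fat numbered 45 with all strains (21.6%, against 24.5% of all genes). With each strain left out they numbered 39 to 78 (lowest without BXD51, highest without BXD79, against 24.5% of all genes in both). Without BXD49, BXD79, BXD83 and both parents they numbered 107 (51.4%, against 23.6%), and under robust regression 105 (against 30.2%). With the marker covariates they numbered 29 (13.9%, against 21.7%). Without the lowest 40% of genes they were 18 of the 134 members kept (against 19.8%). Members higher numbered 13 (6.25%, against 36.7% of all genes), and 9 to 14 with each strain left out. They numbered 27 with the covariates (13%, against 34.2%) and 6 without the lowest 40% (against 40.6%). Members past the strain test numbered 114 (54.8%, against 10.4% of all genes), and 35 without BXD49 (16.8%, against 8.12%). They numbered 56 without the 5 strains (26.9%, against 4.49%), and 203 under robust regression, which called 87.2% of all genes from 2 arrays per strain. Members lower in DBA/2J numbered 113 (54.3%, against 4.61% of all genes) and 29 with the covariates (13.9%, against 1.95%). Under robust regression they numbered 173, and 34.1% of all genes were called between the parents in either direction. The cause was not tested. Leaving out BXD49 (strain test, parents) or the 5 strains (strain test, diets), and the covariates for the parents, were chosen after seeing the data.

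Strain pairs the arrays by its label. Without the replicate block 30 members were lower and 9 higher on high fat (against 23% and 35% of all genes). With all 80 arrays 38 were lower and 9 higher (against 24.6% and 37.6% of all genes). After quantile normalization 54 were lower and 11 higher (against 27.9% and 30.1% of all genes), and 113 passed the strain test (against 9.75%). In that fit 110 were lower in DBA/2J, and 10.8% of all genes differed between the parents in either direction. For all genes quantile normalization gave 11677 higher and 10844 lower on high fat, against 14257 and 9495 as deposited. The change of Ighm turned to -0.0789 with the mean of its features. Ighm with Igj on high fat had r = 0.26 and Ighm with Cd3e on chow r = 0.29 without the 2 farthest arrays. Of members with a gap of at least 0.5 units between 2 sets of at least 8 strains, there were 0 by the mean of both diets, 1 on chow alone and 8 on high fat alone. Over all genes the gap was counted by the mean of both diets alone (16 genes).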

Other observations

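Of the 8 members with such a gap on high fat alone, Igh-VJ558 and Ighv1-55 are heavy chain symbols, and Igkj3, Igkv1-135, Igkv10-96, Igkv5-39, Igkv5-43 and Iglv1 are light chain genes. The lower set held 9 to 11 strains, with DBA/2J, and the upper set 27 to 29 strains, with C57BL/6J. On chow alone the gene was Ighv1-76, with 8 strains in the upper set, C57BL/6J among them. Over all genes, 16 had such a gap by the mean of both diets.

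The 5 Ighm features differed from each other. The feature with the highest score had r of -0.03 to 0.34 with the other 4 over the arrays, and its change was 0.24 units, against -0.35 to 0.05 for the others. In Igh-VJ558, which has 10 features, the other 9 had r of 0.68 to 0.97 with the feature that was used.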
